A study of Mus musculus with 5 samples.

Results

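The B cell and plasma cell genes described here were 9 genes, chosen by symbol among the 24421 gene symbols counted in mouse kidney cortex: *Ms4a1*, *Cd79a*, *Cd79b*, *Cd22*, *Cr2*, *Tnfrsf13c*, *Pax5*, *Blnk* and *Jchain*. RNAseq was performed on flash frozen cortical kidney tissue of 3 *Fnip1* null mice (*Fnip1*-/-; mice 8637, 9121 and 9210) and 2 wildtype mice (*Fnip1*+/+; mice 9055 and 9056), all of the C57BL6J strain, with 1 library per mouse. The null allele was made by ENU (chemical) mutagenesis and was not restricted to the kidney, so B cells of these mice carried it too. The labels give no age or sex for these mice, and the study gives an age range for the mice together, not for each. The study also names the control genotype of its RNAseq as *Fnip1*+/- in one place and counts more wildtype mice than the labels do in another, so the genotypes and numbers used here are those of the labels. The deposited counts of mouse 9210, named so by its label, carry another mouse number in their name. Other crosses of the study carried Mb1Cre, a Cre recombinase expressed from the *Cd79a* locus, whereas the labels of these 5 mice name no Cre.

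B cells develop from bone marrow progenitors under transcription factors that include *Pax5*, and they recognise antigen through a B cell receptor. The receptor is a membrane immunoglobulin whose signal is passed inward by the paired chains *Cd79a* and *Cd79b* and relayed by the adaptor *Blnk*. Plasma cells are the antibody-secreting end stage of the lineage, and the J chain, encoded by *Jchain*, links IgM and IgA into polymers that the polymeric immunoglobulin receptor carries across epithelia. *Fnip1* binds Folliculin and AMPK, and its loss in mice is known to arrest B cell development before the mature stage. A healthy kidney cortex consists mostly of tubular epithelium and holds few B lineage cells, so transcripts restricted to these cells are rare in it.

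The promoters of *Cd79a* and *Jchain* are shown first because these genes differed most between the genotypes. Both sequences are the RefSeq promoter (GRCm38.p6) upstream of the start site and outside annotated exons, written 5′ to 3′ on the strand of the gene. The *Cd79a* stretch covers chr7:24897247-24897380 on the plus strand, with the E-box CAGGTG in capitals, and the *Jchain* stretch covers chr5:88527898-88528147 on the minus strand, where none of the searched motifs was found.
Cd79a: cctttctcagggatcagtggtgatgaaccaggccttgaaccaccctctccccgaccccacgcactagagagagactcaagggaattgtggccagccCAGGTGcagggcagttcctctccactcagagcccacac
Jchain: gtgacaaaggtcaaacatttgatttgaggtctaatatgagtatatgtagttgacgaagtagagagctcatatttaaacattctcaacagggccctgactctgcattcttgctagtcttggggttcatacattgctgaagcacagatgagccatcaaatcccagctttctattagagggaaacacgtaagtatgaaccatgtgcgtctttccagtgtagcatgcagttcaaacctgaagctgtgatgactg

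The table of promoters had an entry for 7 of the 9 genes, each spanning 250 bases before to 50 bases after the start. On either strand, the E-box CAGGTG, a site that E proteins such as *Tcf3* can bind, occurred in the windows of 6 of these 7 genes and in 20.2% of all 32851 promoters of the same length. In *Cd79a* it began 154 bases before the start site, and in *Cr2*, *Tnfrsf13c*, *Blnk* and *Cd22* it began 88, 96, 160 and 245 bases before. In *Jchain* it lay just inside the transcribed part. The octamer ATGCAAAT, which Oct factors with the coactivator *Pou2af1* can bind, was found in 1 of the 7 windows, that of *Blnk*, 130 bases before the start, and in 1.74% of all promoters. The EBF motif CCCNNGGG was found in that of *Cd22* alone, 48 bases before the start, against 13.7% of all promoters. The PU.1 core GAGGAAGT and the box TATAAA were found in 0 of 7, and in 3.2% and 13.6% of all promoters. All 250 bases before the start of *Blnk* lay in annotated exons, its E-box and octamer included. The motif matches describe the windows, and no binding was measured.

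Reads assigned to genes numbered 15799114 to 19132145 per mouse, so that 1 count corresponded to 0.0523 to 0.0623 CPM (counts scaled by TMM to a library of 1e+06). The targeted gene followed its labels: *Fnip1* had 356, 303 and 285 counts in *Fnip1* null mice 8637, 9121 and 9210 and 833 and 851 counts in the wildtype mice 9055 and 9056, and it fell by 1.49 on the log2 scale (SE 0.139, edgeR adjusted p = 0.0298). Libraries of the *Fnip1* null group stood apart from each other. Mouse 9121 had 5954 counts on *Xist* and 0 on *Ddx3y* and *Uty*, whereas the other 4 mice had 3 to 24 counts on *Xist* and 720 to 885 on *Ddx3y*. By these sex-linked genes, mouse 9121 was female and the other 4 mice were male. The *Fnip1* null group thus held both sexes and the wildtype group males only. Summed over 6 adipocyte genes, mice 9121 and 9210 held 77.4 and 219 CPM, against 4.86 to 11.1 CPM in the other 3 mice. Proximal tubule RNA was abundant in all 5 libraries, with 75045 to 110943 counts on the phosphate transporter *Slc34a1*. The tubule genes *Umod* and *Slc12a1* were highest in mouse 9121. *Umod* had 149944 counts there and 87686 to 92563 in the other 4 mice, and *Slc12a1* had 37489 against 18630 to 25521 counts. How evenly the cortex was dissected was not tested. Nothing in the labels names litters, dates or lanes of single mice, and values without single mice are given for the genes they moved most.

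Across the 9 genes, 1 changed past the threshold: *Jchain* fell in *Fnip1* null kidney. Counts of *Ms4a1*, *Cd79a* and *Cd79b* were also lower in every *Fnip1* null mouse than in both wildtype mice, though none of them passed the adjusted threshold, and counts of *Blnk* were higher in every *Fnip1* null mouse without passing it. *Cr2*, *Cd22*, *Tnfrsf13c* and *Pax5* overlapped between the genotypes. The plot of counts by mouse shows all 9 genes.

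**Figure D1:**
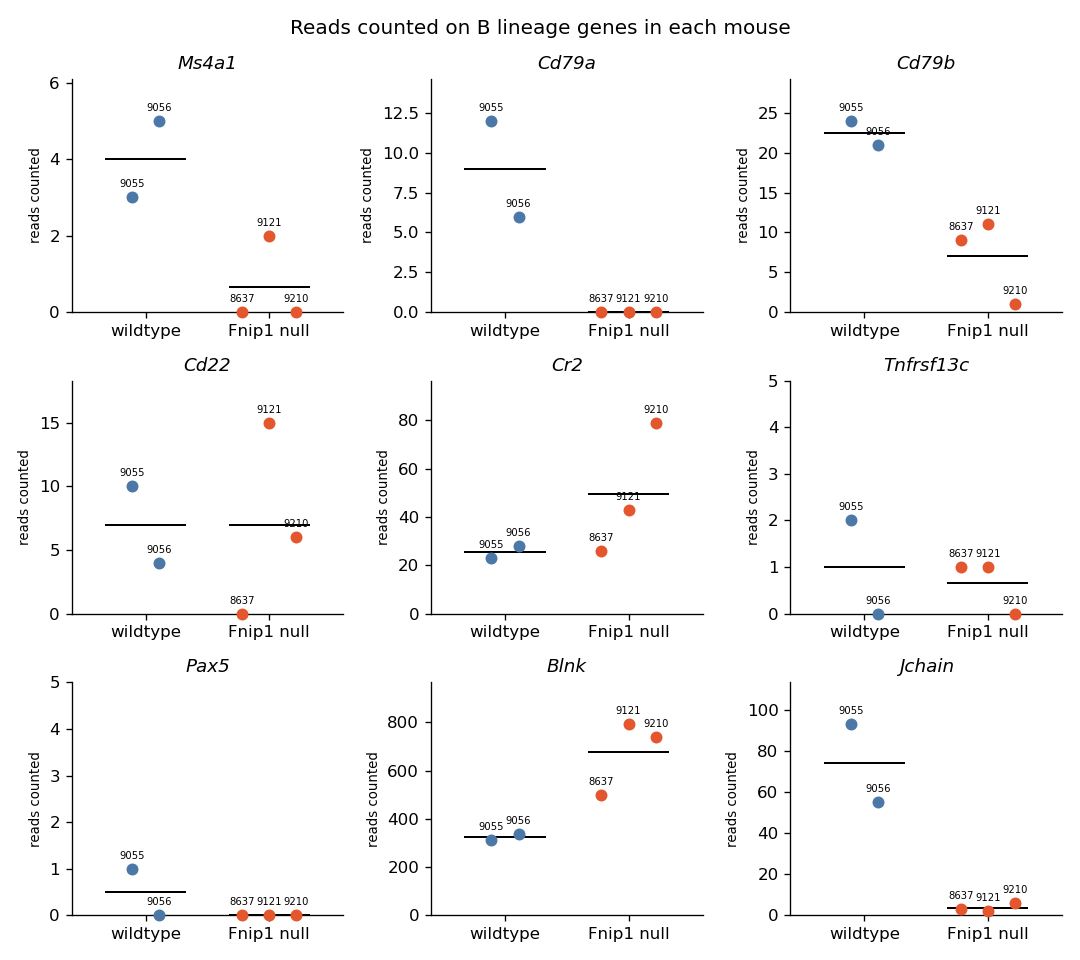
Reads counted on each B lineage gene (vertical axis, raw counts on a linear scale starting at 0, scaled separately per gene) in wildtype (blue, n = 2) and *Fnip1* null (red, n = 3) mice; points are mice, labelled by number, and horizontal lines are group means. *Jchain* lies at 93 and 55 counts in wildtype and at 2 to 6 counts in *Fnip1* null mice, and *Blnk* shows the opposite order, with 311 and 336 counts against 499 to 792.

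A gene was tested in edgeR's quasi-likelihood test when its counts summed to at least 10 over the 5 mice, and it was called past the threshold when its false discovery rate was under 5% and its change 2-fold or more. Under this rule 15664 genes were tested, and 7 of the 9 B lineage genes were among them. *Cd79a* reached that sum through its 18 wildtype counts alone. *Ms4a1* just met it, with 8 counts in wildtype and 2 in *Fnip1* null mice. A gene at or near 0 in *Fnip1* null mice could be tested only if it was high enough in wildtype mice. In all, 0.14% of the tested genes were called lower and 0.428% were called higher in *Fnip1* null mice. Of the 7, 1 was called lower (*Jchain*) and 0 were called higher. At an unadjusted p under 0.05, 3 were lower (*Jchain*, *Cd79a* and *Cd79b*) and 1 was higher (*Blnk*), where 10.5% of all tested genes were lower and 13% higher. edgeR's exact test and likelihood ratio test each called *Jchain* and *Cd79a* lower, and DESeq2 called *Jchain* alone. These tests called more genes in all. The exact test called 1.09% of all tested genes lower and 2.62% higher, the likelihood ratio test 1.12% and 3.21%, and DESeq2 0.792% and 2.37%, and the counts of list genes given below are to be read against these shares. The fit with library size as its only scaling kept *Jchain* as the 1 called gene of the 7, while lower genes made up 13% of the calls over all genes, against 24.7% with TMM; that scaling moved the median log2 fold change of all genes from 0.01 to 0.19.

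The study removed genes with low counts in more than 2 libraries without giving the count, and with 10 counts as the minimum, a number chosen here, 13874 genes were kept. Of the 9 genes, 3 were tested (*Cd79b*, *Cr2* and *Blnk*). The other 6 had 10 counts or more in at most 2 mice. *Jchain* was one of them, since it passed 10 counts in both wildtype mice only. None of them was called by the quasi-likelihood test, where 0.13% of genes were called lower and 0.404% higher. At an unadjusted p under 0.05 there was 1 lower gene (*Cd79b*) and 1 higher gene (*Blnk*), against 11.2% and 13.9% of all genes tested. With this filter the exact test and the likelihood ratio test each called *Cd79b*, and DESeq2 called 0 of the 3. Over all genes, the exact test called 1.05% lower and 3.06% higher, the likelihood ratio test 1.09% and 3.44%, and DESeq2 0.872% and 2.64%.

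Taken by ranges, 4 of the 9 genes had all *Fnip1* null mice below both wildtype mice (*Ms4a1*, *Cd79a*, *Cd79b* and *Jchain*) and 1 had all of them above (*Blnk*). Among the 15664 genes tested, 22% lay wholly below and 22.3% wholly above, so a lack of overlap was common in this comparison of 3 against 2 mice. The same 4 and the same 1 were found without mouse 9121, where 26.1% of tested genes lay wholly below and 26.1% above, and without mouse 9210.

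*Jchain* carried the clearest difference. It had 3, 2 and 6 counts in *Fnip1* null mice 8637, 9121 and 9210 and 93 and 55 counts in wildtype mice 9055 and 9056. The *Fnip1* null mice were all low, and the lowest wildtype mouse was far above them. In normalized terms this was 0.212 ± 0.129 CPM (SD, n = 3) against 4.48 ± 1.86 CPM (SD, n = 2). *Jchain* fell by 4.37 on the log2 scale (SE 0.513), with an adjusted p of 0.0343 in edgeR's quasi-likelihood test. From pooled counts of 11 and 148, the level in wildtype was 21.3 times that in *Fnip1* null mice, with a 95% exact counting interval of 11.6 to 43.6 that covers counting error only. The fold change lay between -4.93 and -3.87 under every alternative run. The call held without mouse 8637 or mouse 9121, and it was lost without mouse 9210 (adjusted p = 0.121), wildtype mouse 9055 (0.222) or wildtype mouse 9056 (0.506), fits in which edgeR called 0 of all genes tested. The cells that gave the *Jchain* reads were not identified. In bulk tissue, fewer such cells and less RNA per cell cannot be told apart.

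*Cd79a* and *Cd79b* encode the Igα and Igβ signalling chains of the B cell receptor. *Cd79a* had 0 counts in all 3 *Fnip1* null mice and 12 and 6 counts in wildtype mice 9055 and 9056. Against a floor of 3 counts over the *Fnip1* null group, it was at least 9.49-fold lower there, and with counting error in the 18 wildtype reads as well, the 95% exact counting interval of the ratio began at 6.95. Its adjusted p in edgeR's quasi-likelihood test was 0.0966, which misses the threshold. It was 0.0394 without mouse 8637, in a fit that called 951 genes, and 0.0971 without mouse 9121, 0.28 without mouse 9210 and 0.563 without mouse 9056. *Cd79b* had 9, 11 and 1 counts in mice 8637, 9121 and 9210 and 24 and 21 counts in the wildtype mice. Mouse 9210 was lowest, and the counts of the 2 genotypes did not overlap. The counting intervals of mice 8637 and 9121, however, each overlapped those of both wildtype mice. This was 0.389 ± 0.286 CPM (SD, n = 3) against 1.35 ± 0.204 CPM (SD, n = 2), a log2 fold change of -1.76 (SE 0.665) with an adjusted p of 0.185 in edgeR. The pooled counts of 21 and 45 put wildtype at 3.39 times the level of *Fnip1* null mice (95% exact counting interval 1.98 to 5.99). Without mouse 9210 the log2 fold change was -1.27, and without mouse 9121 it was -2.16.

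*Ms4a1* encodes CD20, a membrane protein of mature B cells that is lost at the plasma cell stage. It had 0, 2 and 0 counts in mice 8637, 9121 and 9210 and 3 and 5 counts in mice 9055 and 9056. The wildtype mice were both higher, by 1 count at the closest. The pooled ratio of wildtype to *Fnip1* null mice was 6.33, with a counting interval from 1.26 to 61.2, and the log2 fold change of -2.46 (SE 1.09) had an adjusted p of 0.232 in edgeR. *Tnfrsf13c*, the receptor for the survival factor BAFF, had 1, 1 and 0 counts in *Fnip1* null and 2 and 0 counts in wildtype mice, and *Pax5*, the factor that commits progenitors to the B lineage, had 1 count in mouse 9055 and 0 in the other 4 mice. Both fell under the filter, and no difference in either could be detected at this depth.

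*Cd22*, an inhibitory co-receptor that binds sialic acid, overlapped between the genotypes. It had 0, 15 and 6 counts in mice 8637, 9121 and 9210 and 10 and 4 counts in mice 9055 and 9056, so mouse 9121 was highest of all 5 and mouse 8637 lowest. Its log2 fold change of -0.12 (SE 1.07) had an adjusted p of 0.958 in edgeR, and its sign turned with the scaling and with the mice used. Exons of *Cd22* share 479 bases (9.5% of its exon length) with *Gm29439*, a gene on the opposite strand, and the strand setting used in counting is not given in the sources used here. Exons of *Pax5* share 636 bases with *5730488B01Rik* and 125 bases with *Gm12462* in the same way.

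*Cr2* encodes complement receptor 2 (CD21), which B cells and follicular dendritic cells use to bind fragments of *C3*. It had 26, 43 and 79 counts in mice 8637, 9121 and 9210 and 23 and 28 counts in mice 9055 and 9056. Mouse 8637 lay within the wildtype range and mouse 9210 was highest. The level was 2.82 ± 1.65 CPM (SD, n = 3) in *Fnip1* null and 1.52 ± 0.125 CPM (SD, n = 2) in wildtype mice, with a log2 fold change of 0.88 (SE 0.51) and an adjusted p of 0.335 in edgeR. Without mouse 9210 the log2 fold change was 0.32. Mouse 9210 also held the highest adipocyte sum, and the part of that tissue in the *Cr2* value was not tested. *C3*, the source of its ligands, had 909, 1448 and 1874 counts in mice 8637, 9121 and 9210 and 534 and 180 counts in the wildtype mice, a log2 fold change of 1.88 (SE 0.52) that did not pass (adjusted p = 0.116). Follicular dendritic cells had 4 tested marker genes, *Cr2* itself among them, so their median log2 fold change of 0.7 is partly that of *Cr2*. The others were *Cxcl13*, *Mfge8* and *Clu*, at 1.75, 0.51 and 0.22. *Mfge8* had 1215 counts or more and *Clu* 3790 or more in every mouse, far above *Cr2*, and the cells that gave these reads were not identified. Of the 4, 0 were called by any of the 4 tests and 1 (*Mfge8*) was higher at an unadjusted p under 0.05. Among 8 genes for ligands and relatives of *Cr2*, 0 were called in either direction by the quasi-likelihood test or DESeq2, 3 were higher and 1 lower at an unadjusted p under 0.05, the exact and likelihood ratio tests each called 1 higher, and the median log2 fold change was 0.24, against 0.01 over all genes tested.

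*Blnk*, the adaptor that links the kinase Syk to downstream enzymes, is also expressed by macrophages and other myeloid cells. It had 499, 792 and 741 counts in mice 8637, 9121 and 9210 and 311 and 336 counts in mice 9055 and 9056, by far the most of the 9 genes. All 3 *Fnip1* null mice were above both wildtype mice. The level was 38.3 ± 7.71 CPM (SD, n = 3) in *Fnip1* null mice and 19.3 ± 0.0417 CPM (SD, n = 2) in wildtype mice. The log2 fold change was 0.98 (SE 0.184), just under the 2-fold threshold, with an adjusted p of 0.0695 in edgeR's quasi-likelihood test. Without mouse 8637 it was called (log2 fold change 1.15, adjusted p = 0.00396), in a fit that called 6.13% of all genes. Without each other mouse it was not called, with adjusted p-values of 0.0757 (mouse 9121), 0.248 (9210), 0.239 (9055) and 0.564 (9056).

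Markers of other leukocytes had mostly positive fold changes in these libraries, where 8061 of all 15664 tested genes had a positive one. The summed level of 6 pan-leukocyte genes was 43.6, 95.5 and 56.9 CPM in mice 8637, 9121 and 9210 and 37.9 and 25.6 CPM in mice 9055 and 9056, so the *Fnip1* null mice were all higher and mouse 9121 highest. Of the 6 genes, 0 were called by the quasi-likelihood test and 4 were higher at an unadjusted p under 0.05, while DESeq2 called 3 and the exact and likelihood ratio tests 2 each. *Ptprc*, the common leukocyte antigen CD45, had 193, 382 and 245 counts against 152 and 99 counts (log2 fold change 1.02, SE 0.309, adjusted p = 0.133 in edgeR). Of 12 macrophage and monocyte genes, 11 had a positive and 1 (*Csf1r*) a negative log2 fold change, with a median of 1.42 and summed levels of 153 to 291 CPM in *Fnip1* null and 129 to 151 CPM in wildtype mice, and none was at 0 in any group. The quasi-likelihood test called 0 of these 12, although 10 were higher and 1 lower at an unadjusted p under 0.05, and DESeq2, the exact test and the likelihood ratio test each called 7 higher, where 13% of all tested genes were higher and 10.5% lower at that p and 2.37% to 3.21% were called higher by those tests. Among dendritic cell genes, *Itgax* (CD11c) had 82, 109 and 85 counts against 34 and 26 counts. The neutrophil gene *S100a9* rose, with 60, 74 and 69 counts against 5 and 5 counts (log2 fold change 3.65, SE 0.327, adjusted p = 0.0298 in edgeR). Of 10 tested T cell genes, all 10 had a positive log2 fold change (median 1.06), 0 were called by the quasi-likelihood test, 2 were higher at an unadjusted p under 0.05, and DESeq2, the exact test and the likelihood ratio test called 1 each. The part of these cells in the *Blnk* value was not tested.

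**Figure D2:**
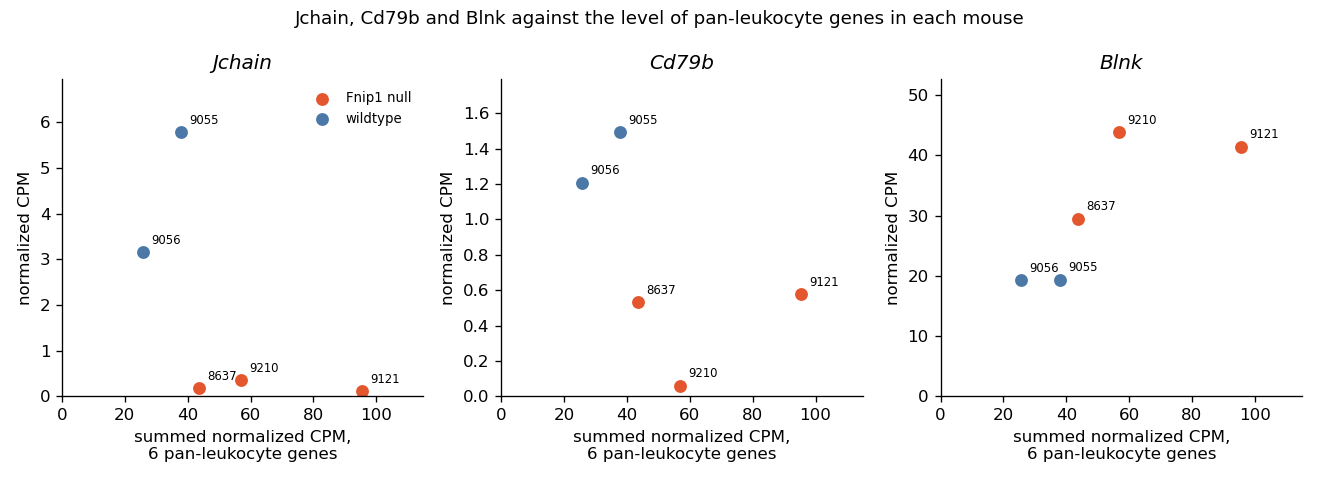
Level of *Jchain*, *Cd79b* and *Blnk* (vertical axes, TMM-normalized CPM, linear from 0) against the summed level of 6 pan-leukocyte genes (horizontal axes, same unit) in each mouse; blue points are wildtype (n = 2) and red points *Fnip1* null (n = 3). The *Fnip1* null mice lie to the right in all panels, at 43.6 to 95.5 CPM of leukocyte genes, and they are below the wildtype mice for *Jchain* and *Cd79b* and above them for *Blnk*.

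*Jchain* and *Cd79b* were lower, and the leukocyte genes higher, in each *Fnip1* null mouse, so ratios between them separate the genotypes by construction and are given as a description. For each 1000 counts on the 6 pan-leukocyte genes, *Jchain* had 4.07, 1.1 and 6.24 counts in mice 8637, 9121 and 9210 and 153 and 123 counts in mice 9055 and 9056. *Cd79b* had 12.2, 6.03 and 1.04 counts per 1000 in the *Fnip1* null mice and 39.5 and 47.1 in the wildtype mice. *Blnk* was higher in each *Fnip1* null mouse, as the leukocyte genes were, so dividing by them shrinks its difference, also by construction. It had 676, 434 and 771 counts per 1000 in mice 8637, 9121 and 9210 and 512 and 753 in mice 9055 and 9056. The genotypes overlapped on this scale, which does not show the cells that gave the *Blnk* reads.

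**Figure D3:**
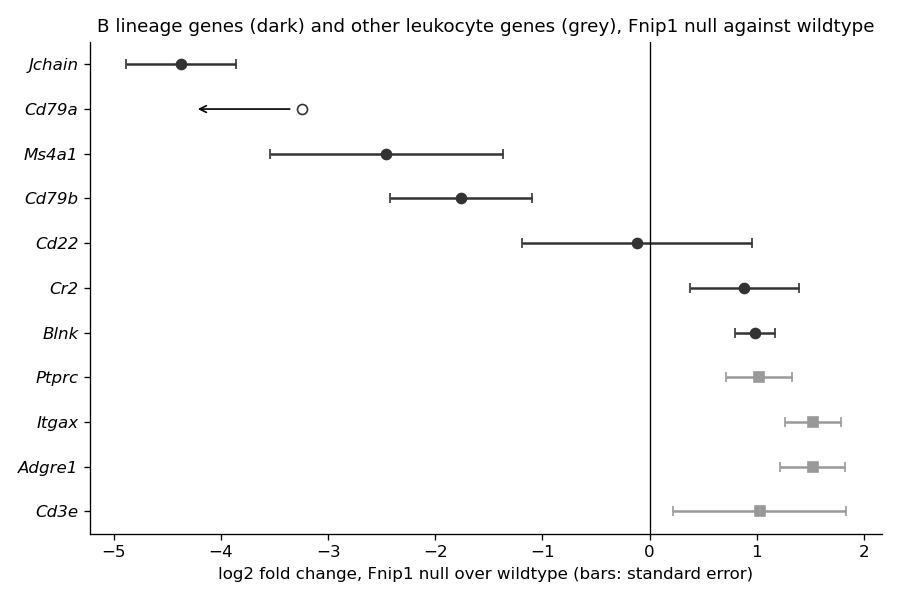
Log2 fold change of *Fnip1* null over wildtype (horizontal axis) for the B lineage genes tested (dark circles) and for *Ptprc*, *Itgax*, *Adgre1* and *Cd3e*, defining genes of leukocytes, dendritic cells, macrophages and T cells (grey squares); bars are standard errors from edgeR with n = 3 and n = 2 mice. The open circle with an arrow is the value for *Cd79a* against a floor of 3 counts, at least 9.49-fold lower (6.95-fold at the limit of its counting interval), and *Jchain* at -4.37 lies opposite to *Blnk* at 0.98 and *Ptprc* at 1.02.

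The level of each gene per kilobase of exon gave the order among genes. In wildtype mice *Blnk* was highest at 3.23 ± 0.00698 CPM per kilobase (SD, n = 2), followed by *Jchain* at 1.78 ± 0.739, *Cd79b* at 0.944 ± 0.142, *Cd79a* at 0.375 ± 0.195 and *Cr2* at 0.187 ± 0.0154. *Cd22* (0.0846), *Ms4a1* (0.0383), *Tnfrsf13c* (0.0304) and *Pax5* (0.0035) made up the low end. Down to *Cd22*, no wildtype range met that of its neighbour in this order, and from *Cd22* to *Pax5* each range overlapped the next. In *Fnip1* null mice the order began with *Blnk* at 6.39 ± 1.29 CPM per kilobase (SD, n = 3), *Cr2* at 0.348 ± 0.203 and *Cd79b* at 0.272 ± 0.2, with *Jchain* next at 0.0844 ± 0.0512. From *Cr2* through *Cd79b* and *Jchain* to *Cd22*, each range overlapped the next there. Summed over all 9 genes, counts were 538, 866 and 833 in mice 8637, 9121 and 9210 and 479 and 455 in mice 9055 and 9056, a log2 ratio of 0.59 between the mean CPM values that *Blnk* set. Without *Blnk* the sums were 39, 74 and 92 against 168 and 119 counts, and the log2 ratio was -1.16.

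Other genes of the B lineage came from lists of symbols. Of 20 tested genes for B cell surface and related proteins, 0 were called in either direction by the quasi-likelihood test, 3 were higher and 3 lower at an unadjusted p under 0.05, shares close to the 13% and 10.5% of all tested genes, and the median log2 fold change was 0.43. DESeq2 called 1 of them higher, and the exact and likelihood ratio tests each called 2 higher and 1 lower. Ranges that lay wholly lower included those of *Bank1*, *Fcmr* and *Ralgps2*, and 6 lay wholly higher (*Cd72*, *Cd180*, *Cd38*, *Cd1d1*, *H2-Ob* and *Il7r*). Over all tested genes, 22% lay wholly lower and 22.3% wholly higher, so such ranges were common. *Bank1*, *Fcmr*, *Cd180*, *Fcrla*, *Fcrl1*, *Blk* and *Spib* are named here after their values were seen. The ranges of *Fcrla*, *Fcrl1*, *Blk* and *Spib* overlapped between the genotypes. *Fcrla* had 1, 6 and 3 counts in mice 8637, 9121 and 9210 against 3 and 5 counts. *Fcrl1* had 0, 4 and 2 against 2 and 3 counts. *Blk* had 3, 1 and 1 against 2 and 2 counts, and *Spib* had 3, 3 and 8 against 4 and 5 counts. *Bank1*, a B cell scaffold protein, had 1, 3 and 1 counts in mice 8637, 9121 and 9210 against 6 and 5 counts (adjusted p = 0.196 in edgeR), and *Fcmr*, the Fc receptor for IgM, had 3, 8 and 7 against 10 and 10 counts (adjusted p = 0.383). *Cd72*, a co-receptor that other leukocytes also carry, had 58, 114 and 63 counts against 29 and 33 counts (log2 fold change 1.24, SE 0.329, adjusted p = 0.111), and *Cd180*, a Toll-like receptor relative, had 17, 55 and 22 against 16 and 7 counts (adjusted p = 0.261).

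Genes that developing B cells use in receptor assembly were at or near 0 in both genotypes. *Rag1*, *Rag2* and *Vpreb2* had 0 counts in all 5 mice, and *Vpreb1*, a surrogate light chain gene named here after its values were seen, had 6, 10 and 4 counts in mice 8637, 9121 and 9210 against 6 and 10 counts. These genes came from a wider list of early B cell genes, in which 10 were tested, *Vpreb1* alone among them a gene of receptor assembly. Of the 10, 0 were called by the quasi-likelihood test or DESeq2, and the exact and likelihood ratio tests each called 1 higher. At an unadjusted p under 0.05, 3 were higher (*Kit*, *Cd34* and *Flt3*), where 13% of all tested genes were. The best counted of the 10, *Kit* and *Cd34*, also belong to other cell types. *Kit*, the stem cell factor receptor, had 471, 734 and 785 counts in mice 8637, 9121 and 9210 against 404 and 391 counts (adjusted p = 0.149 in edgeR). *Cd34*, a marker of progenitors and endothelium, had 478, 839 and 753 against 420 and 263 counts (adjusted p = 0.141).

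Among 14 tested B lineage transcription factors, 0 were called by the quasi-likelihood test, 2 were lower and 0 higher at an unadjusted p under 0.05, and DESeq2, the exact test and the likelihood ratio test each called 1 lower. The median log2 fold change was 0.54. *Bcl6*, a repressor that germinal centre B cells need and that other tissues express too, had 152, 170 and 515 counts in mice 8637, 9121 and 9210 and 1864 and 1324 counts in mice 9055 and 9056. These counts were far above those of the B cell receptor genes, and the log2 fold change of -2.58 (SE 0.542) had an adjusted p of 0.0794 in edgeR. *Pou2af1*, the coactivator of octamer-bound Oct factors in B cells, had 0 counts in the *Fnip1* null mice and 5 and 4 counts in the wildtype mice, which is under the filter and at least 4.75-fold lower by the floor, with a counting interval that began at 3.12. It too is named after its values were seen.

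Genes of the secretory apparatus, which plasma cells use in quantity, made up most of a list of plasma cell genes. Of 14 tested plasma cell genes, 1 was called higher (*Fkbp11*) and 0 lower by each of the 4 tests, with 1 higher and 1 lower at an unadjusted p under 0.05 and a median log2 fold change of -0.02. *Fkbp11*, a prolyl isomerase of the endoplasmic reticulum that secretory cells of many kinds express, had 156, 192 and 162 counts in mice 8637, 9121 and 9210 and 49 and 58 counts in mice 9055 and 9056, and it rose by 1.59 on the log2 scale (SE 0.171, adjusted p = 0.0298 in edgeR). *Xbp1*, the factor that drives the secretory programme, had 2029 to 2577 counts in *Fnip1* null and 2087 and 2608 counts in wildtype mice (adjusted p = 0.8). *Edem1*, which helps to clear misfolded glycoproteins, had 1533 to 2137 counts against 2768 and 3210 counts, with a log2 fold change of -0.84 (SE 0.183) and an adjusted p of 0.084. Kidney tubule cells express such genes as well, and these libraries do not tell the sources apart. Further genes of the list are named after their values were seen. *Mzb1* had 4, 5 and 2 counts in mice 8637, 9121 and 9210 against 6 and 7 counts (adjusted p = 0.378 in edgeR). *Derl3* had 15, 8 and 7 against 12 and 15 counts (adjusted p = 0.568), and *Prdm1* had 44, 37 and 35 against 42 and 23 counts (adjusted p = 0.815). *Tnfrsf17* had 0, 1 and 0 against 2 and 0 counts, under the filter. *Pou2af1*, given above, is on this list too.

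The antibody genes could be read only in part. Of 19 listed immunoglobulin genes and transport receptors, 2 matched a counted symbol (*Pigr* and *Fcgrt*), and the other 17, among them the heavy chain constant genes, were not analysed here. *Pigr*, the polymeric immunoglobulin receptor that binds J chain polymers, had 8047, 3474 and 3065 counts in mice 8637, 9121 and 9210 and 3918 and 5412 counts in mice 9055 and 9056. The genotypes overlapped and mouse 8637 was highest (log2 fold change 0.01, SE 0.44, adjusted p = 0.992 in edgeR). *Fcgrt*, the neonatal Fc receptor that recycles IgG, had 3180, 4592 and 3110 counts against 4394 and 5095 counts (log2 fold change -0.47, SE 0.14, adjusted p = 0.134).

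Signalling genes downstream of the B cell receptor, most of which other leukocytes share, had a positive log2 fold change in 18 of 26 tested and a negative one in 8. Of these, 0 were called by the quasi-likelihood test, 8 were higher and 4 lower at an unadjusted p under 0.05 (13% and 10.5% of all tested genes), and the median log2 fold change was 0.38. DESeq2 called 4 higher and 0 lower, and the exact and likelihood ratio tests each called 4 higher and 1 lower. The best counted of the list, *Cd81*, *Pik3r1* and *Grb2*, had log2 fold changes of 0.06, 0.27 and 0.06 (adjusted p = 0.796, 0.25 and 0.74 in edgeR). *Fcgr2b*, an inhibitory Fc receptor for IgG and next in counts, had 479, 585 and 476 counts in mice 8637, 9121 and 9210 against 562 and 770 counts (log2 fold change -0.45, SE 0.126, adjusted p = 0.119). A list for BAFF, its receptors and B cell attraction had 14 tested genes, with no BAFF receptor among them. The receptor genes *Tnfrsf13b* and *Tnfrsf17* fell under the filter, with 4 and 3 counts in all, as *Tnfrsf13c* did. The quasi-likelihood test, DESeq2, the exact test and the likelihood ratio test called 0 of the 14. Among the 14, 2 were higher at an unadjusted p under 0.05. The median log2 fold change of the 14 was 0.34, and 13 of the 14 values were positive. Over all 15664 tested genes, 8061 had a positive value, the share against which both lists of this paragraph are to be read. *Cxcl12*, a chemokine that retains B cell progenitors and plasma cells in their niches, had 3175, 4831 and 3817 counts in mice 8637, 9121 and 9210 and 3016 and 2232 counts in mice 9055 and 9056 (log2 fold change 0.49, SE 0.2, adjusted p = 0.204).

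The patterns nearest to the B cell surface genes were sought over all other tested genes. The template was the summed CPM of *Ms4a1*, *Cd79a*, *Cd79b*, *Cr2*, *Cd22*, *Pax5* and *Tnfrsf13c* over the 5 mice, which *Cr2* dominated. The 8 nearest genes were *Zfp874a*, *9430065F17Rik*, *H1fx*, *Efcab5*, *Tmem8b*, *Cdk20*, *Creb3l4* and *5330417C22Rik*, with root mean square differences of 0.0843 to 0.131 in centred log2 CPM. A like search with *Jchain* as the template was added after its values were seen and gave *Col19a1*, *Bcl6*, *Ces1g*, *Col6a6*, *AA536875*, *Itih2*, *Rhox6* and *Henmt1*, at distances of 0.631 to 0.921. The nearest of these, *Col19a1*, a collagen gene, had 1, 1 and 10 counts in mice 8637, 9121 and 9210 and 47 and 73 counts in mice 9055 and 9056. These 8 were picked for a profile like that of *Jchain*, so lower counts in *Fnip1* null mice followed from the choice. Among them, *Itih2* and *Col6a6* fell past the threshold (log2 fold changes of -2.28 and -2.71, adjusted p = 0.0384 and 0.048 in edgeR). Over all tested genes, 0.14% were called lower. Because 5 mice define each pattern, these are descriptions of these libraries.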

How the data were processed

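RNA of 5 kidney cortices was sequenced by the authors on an Illumina HiSeq after TruSeq library preparation. Per the labels and the study's methods, reads were aligned to mm10 with TopHat2 2.1.0 and counted per gene with HTSeq 0.6.1. The study defined differential expression with edgeR and the threshold used here, and the count minimum of its filter was set here. The deposited values are these raw counts, without normalization. Lines that name no gene (39% to 42.8% of the tallies, mostly reads that align more than once) were left out, so reads shared with a near copy of a gene are not counted.

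The counts were compared in edgeR 4.0.16 under R 4.3.3 (estimateDisp, glmQLFit and glmQLFTest, TMM, two-sided, Benjamini-Hochberg over all genes tested). DESeq2 1.42.0, edgeR's exact and likelihood ratio tests, other scalings and filters, and leaving out each mouse were alternatives. Standard errors were derived from the fold change and test statistic. Nothing was fitted with covariates. The code was tested on simulated data. Libraries of the same genotype differed by more than sampling noise, so none was a duplicate, and p-values measure the spread between mice. Coordinates and exon lengths are from GENCODE M21 (GRCm38, which is mm10), matched by symbol.

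The genes and lists were chosen with earlier results of these data known. Named were all 9 genes, from each list the called genes and up to 4 with the most counts, defining markers, and the 8 genes of nearest pattern. Protein sequences were not used here, and 1 gene of the lists is not reported here.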

Additional observations from a re-analysis of the deposited data

How the results depend on the processing

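The call of *Jchain* held under every other test, scaling and filter run on all 5 mice with summed counts, and it was lost in 3 of the fits that left out 1 mouse. With the summed count filter, 89 genes and 1 of the 9 B lineage genes were called. The exact test called 581 genes and 2 of the 9, the likelihood ratio test 679 and 2, DESeq2 496 genes, and no filter 145 genes. Leaving out 1 mouse gave 0 (without mouse 9210, 9055 or 9056) to 951 genes (without mouse 8637) and 0 to 3 of the 9. With the filter of the study, 74 genes and 0 of the 9 were called. The exact test called 570 genes and 1 of the 9, the likelihood ratio test 628 and 1, DESeq2 487 genes, no filter 145 and 1, and filterByExpr 1 of the 9. Leaving out 1 mouse gave 0 to 948 genes and 0 to 2 of the 9. The cause of these differences was not tested. Where 1 wildtype mouse was left out, the remaining one was assumed to vary like the *Fnip1* null mice.

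The log2 fold change of *Cd22* turned positive with library size only (0.071), and over the fits without 1 mouse it ran from -1.21 (without mouse 9121) to 0.74 (without mouse 9055), with 0.45 without mouse 8637. The log2 ratio of summed CPM was 0.59 with *Blnk* and -1.16 without it, since *Blnk* holds most of the counts. No paired analysis was possible because the mouse numbers of the genotypes are not shared. At this depth the 2 filtered genes, *Pax5* and *Tnfrsf13c*, and any change of a few counts could not be tested.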
